A study of Mus musculus with 16 samples.

Results

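The 33 genes described here encode the protein-folding machinery of the endoplasmic reticulum (ER) and the proteins that sense and relieve its overload, the unfolded protein response. They were chosen by gene symbol, and all 33 were present among the 24421 gene entries of the deposited count table. By role they comprised 9 chaperones of the ER lumen with their cofactors, 2 lectin chaperones, 6 enzymes of disulfide bond formation, 4 sensors and sensor-driven transcription factors, 9 components of ER-associated degradation and 3 components of protein translocation. The filter on low counts retained 32 of them among 13522 genes tested, and left out Derl3.

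Ventricles of mice with a calpain-resistant junctophilin-2 were compared with those of wildtype (WT) littermates, under pressure overload and without it. Junctophilin-2, the product of Jph2, holds the T-tubule membrane of the heart muscle cell next to the sarcoplasmic reticulum, and calpains are proteases that cut it. In JP2CR, a homozygous knock-in carried by every cell, the codons for residues 563 to 568 were missing, a change that gene counts do not check. Trans-aortic constriction (TAC) narrows the aorta and so raises the pressure against which the left ventricle pumps, and sham mice had the control operation. The groups were JP2CR TAC, JP2CR sham, WT TAC and WT sham, with 4 libraries each. All mice were labelled male C57BL/6N, were operated at 9 to 10 weeks of age and gave ventricular tissue 5 weeks later. The labels do not tie a library to a mouse, so p-values measure the spread between libraries.

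The ER lumen folds membrane and secreted proteins, and BiP (Hspa5), GRP94 (Hsp90b1) and the calnexin and calreticulin cycle hold their chains until they are mature. Misfolded chains draw BiP away from the sensors IRE1 (Ern1), PERK (Eif2ak3) and ATF6. Active IRE1 splices the Xbp1 mRNA, PERK slows translation, and ATF6 is cut in the Golgi to release a transcription factor. ATF6 and spliced XBP1 switch on chaperone and degradation genes, many through an ER stress element in the promoter. In the heart muscle cell the ER is continuous with the calcium-storing sarcoplasmic reticulum.

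The libraries held 9966782 to 16609732 counts. In 3 of them, labelled male, the female-specific RNA Xist was counted: JP2CR sham 3 and 4 had 189 and 196 CPM (counts scaled to a common library total with TMM factors) with 0 CPM summed over 4 Y-linked genes, and JP2CR TAC 4 had 141 CPM with 118 CPM of Y-linked genes. The other 13 had at most 0.266 CPM of Xist. WT TAC 3 and JP2CR TAC 3 lay between their replicates 1 and 2 for 99% of 509 genes and 98.3% of 413 genes that set those replicates at least 0.5 log2 apart, counting genes of 10 CPM or more. Among the other TAC libraries these shares were 88.4% in WT TAC 4 and 73.4% in JP2CR TAC 4, and WT sham 3 and 4 lay between WT sham 1 and 2 for 96.9% and 93.8% of 96 genes. The libraries with Xist and the 2 called intermediate here (WT TAC 3 and JP2CR TAC 3) were left out in further fits, and calls lost or gained there are given with the gene. Cardiomyocyte markers were abundant in every library, and lower after TAC: 8 of them summed to 37600 to 40270 CPM in JP2CR TAC, 43530 to 48440 in JP2CR sham, 37330 to 42080 in WT TAC and 44030 to 45330 in WT sham. No TAC library reached a sham library of its genotype, and 2 of the 8 were called higher and 5 lower in JP2CR, and 2 higher and 4 lower in WT.

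The promoters are shown first because ATF6 and XBP1 are known to act on chaperone genes through an ER stress element. RefSeq promoter windows of GRCm38.p6, from 250 bases before to 50 after the start site, were at hand for 28 of the 33 genes, in 31 windows (Ero1l under its RefSeq symbol Ero1a). Hyou1, Manf, Atf6, Derl1 and Sec61a1 had none. The ER stress element was searched on both strands as CCAAT, then 9 bases of any kind, then CCACG. It was found in 9 of the 28 genes, against 39 of all 32851 promoters in the table (0.119%). The latter count is of promoters rather than genes and includes those of the 28. As the element is known from genes of this kind, its larger share among them is no independent result. Of the lumenal chaperones and cofactors Hspa5, Hsp90b1, Dnajc3 and Creld2 held it, and Dnajb9 and Sdf2l1 held none of the 3 motifs searched. The 10 matches are given below in the direction of the motif, 5′ to 3′, with the fixed letters in capitals and the free bases in lower case.
Hspa5: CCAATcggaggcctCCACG
Hsp90b1, distal: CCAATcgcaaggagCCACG
Hsp90b1, proximal: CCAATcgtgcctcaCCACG
Canx: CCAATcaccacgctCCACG
Calr: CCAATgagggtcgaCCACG
Pdia6: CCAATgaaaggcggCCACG
Syvn1: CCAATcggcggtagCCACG
Dnajc3: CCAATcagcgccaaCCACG
Creld2: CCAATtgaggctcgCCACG
Derl3: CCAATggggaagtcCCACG

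The second ER stress element, ATTGG and CCACG around 1 free base, was found in Dnajb11 and Herpud1, against 12 of all promoters (0.0365%). The core of the unfolded protein response element, TGACGTGG, was found in Txndc5, against 222 of all promoters (0.676%). So 12 of the 28 genes held a motif of the 3, and the motifs searched do not overlap one another in any of these windows. A match is a run of letters and does not show that a factor binds there. Only exact matches were counted, so a window without a match may hold a variant, and bases outside the windows were not searched. The windows of 4 genes are printed because the account below turns on them: Hspa5 and Hsp90b1, whose transcripts were abundant and lower after TAC in WT, Herpud1, whose level separated libraries of 1 group, and Edem3, whose transcript was higher after TAC and whose window held none of the 3 motifs. Capitals mark the motif.
Hspa5, chr2:34771840-34772139, plus strand: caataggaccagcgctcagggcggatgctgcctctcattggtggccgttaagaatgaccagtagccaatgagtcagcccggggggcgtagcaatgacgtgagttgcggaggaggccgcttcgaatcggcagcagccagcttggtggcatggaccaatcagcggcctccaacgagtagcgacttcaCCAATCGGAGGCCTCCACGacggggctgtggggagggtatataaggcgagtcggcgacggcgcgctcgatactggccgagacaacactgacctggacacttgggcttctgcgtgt
Hsp90b1, chr10:86705395-86705694, minus strand: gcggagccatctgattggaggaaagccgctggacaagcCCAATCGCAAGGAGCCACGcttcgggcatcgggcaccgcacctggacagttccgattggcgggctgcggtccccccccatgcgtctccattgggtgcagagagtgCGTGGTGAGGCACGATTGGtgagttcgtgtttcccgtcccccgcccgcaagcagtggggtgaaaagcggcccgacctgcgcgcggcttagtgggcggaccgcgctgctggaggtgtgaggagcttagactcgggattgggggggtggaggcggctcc
Herpud1, chr8:94386179-94386478, plus strand: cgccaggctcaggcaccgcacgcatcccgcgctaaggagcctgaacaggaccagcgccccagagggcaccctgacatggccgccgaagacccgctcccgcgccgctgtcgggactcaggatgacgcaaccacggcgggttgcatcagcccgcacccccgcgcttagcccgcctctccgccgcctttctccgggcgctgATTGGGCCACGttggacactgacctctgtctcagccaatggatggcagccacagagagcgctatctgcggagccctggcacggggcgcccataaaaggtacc
Edem3, chr1:151755124-151755423, plus strand: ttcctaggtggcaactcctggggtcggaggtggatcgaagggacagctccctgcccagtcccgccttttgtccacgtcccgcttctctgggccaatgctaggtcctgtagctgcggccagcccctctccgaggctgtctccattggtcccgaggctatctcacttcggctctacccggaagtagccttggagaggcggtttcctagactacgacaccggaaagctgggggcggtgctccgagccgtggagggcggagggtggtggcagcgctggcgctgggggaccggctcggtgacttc

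**Figure D1:**
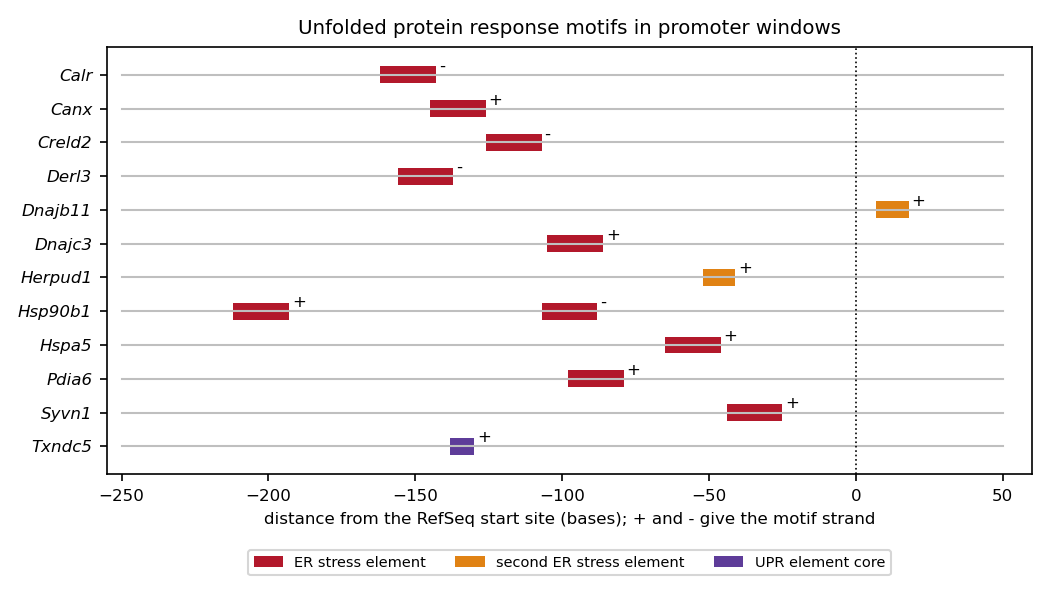
Position of the 3 motifs in the RefSeq promoter windows of the 12 genes that hold one; the x axis gives the distance from the start site in bases, boxes span the motif, and + and - give its strand relative to the gene. In Hspa5 the ER stress element begins at position -65 from the start site, and Hsp90b1 holds 2.

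After TAC the lumenal and lectin chaperones that changed were lower, while Atf6 and some of the disulfide and degradation genes were higher. In JP2CR ventricles 8 of the 32 tested genes (25%) were higher and 6 (18.8%) lower at an adjusted p under 0.05 by edgeR's quasi-likelihood test with Benjamini-Hochberg adjustment over all genes. Of all 13522 genes 20.7% were higher and 20.7% lower in that comparison, so both shares were near the background. The count of 8 was 5 without JP2CR TAC 3 and also without both intermediate TAC libraries. In WT ventricles 5 (15.6%) were higher and 11 (34.4%) lower, against 21.1% and 20.8% of all genes. The share of lower genes there stood above the background and that of higher genes was near it. These shares were not tested against the background. The median log2 fold change of the 32 was 0.03 in JP2CR and -0.08 in WT, against -0.0042 and -0.00094 over all genes. The TAC and sham libraries did not overlap for 6 higher and 6 lower genes in JP2CR, against 16.8% and 17.3% of all genes, and for 5 higher and 11 lower genes in WT, against 21% and 21%. Called lower in both genotypes were Hspa5, Hyou1, Dnajb9, Canx, Pdia6 and Derl1, and called higher in both were P4hb, Ero1l, Atf6, Edem1 and Edem3. No gene was called in opposite directions. These are bulk libraries, in which fewer cells of a type and less RNA per cell cannot be told apart.

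**Figure D2:**
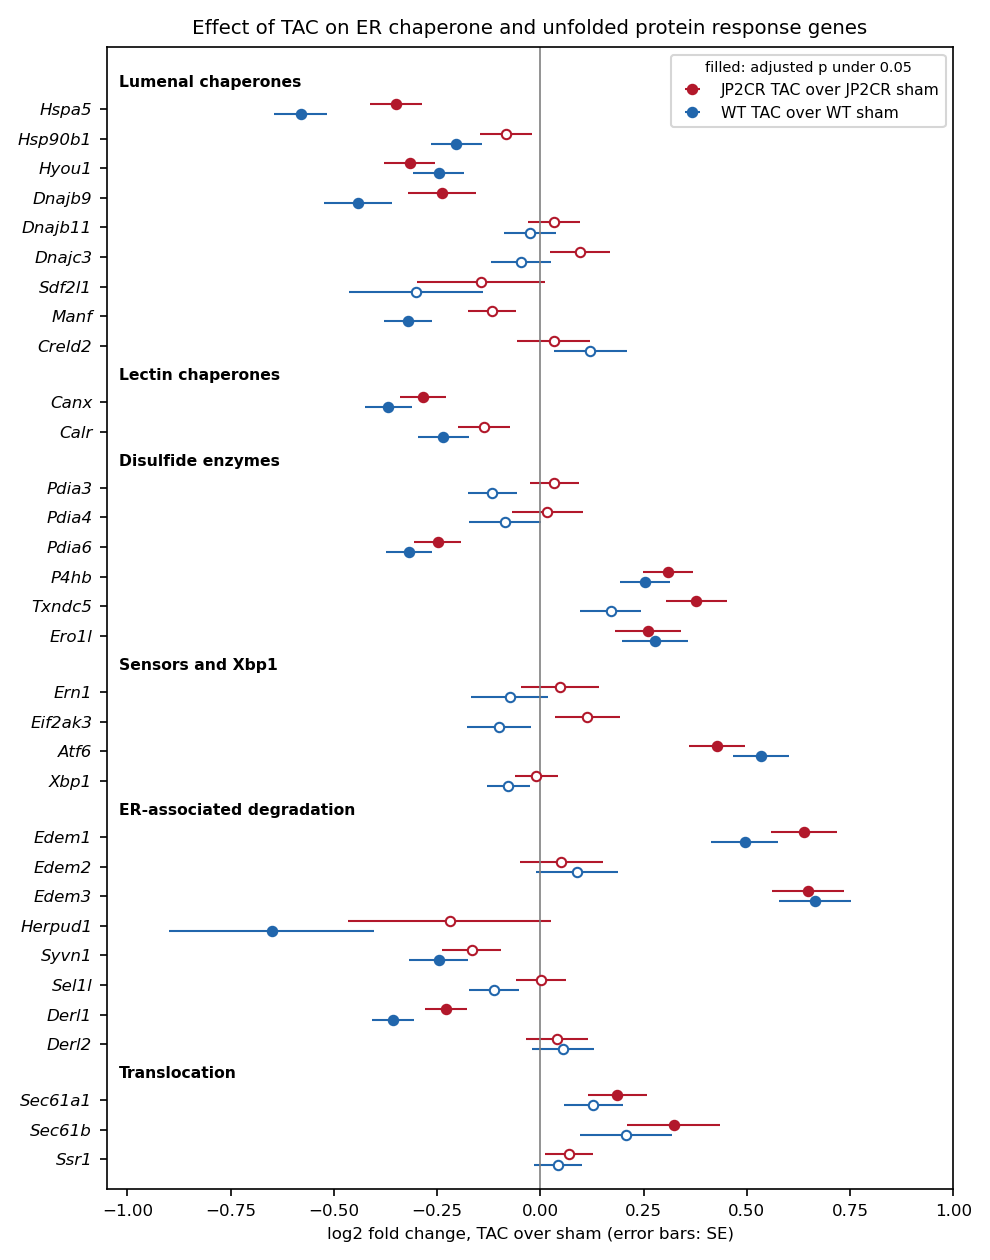
Log2 fold change of each of the 32 tested genes after TAC over sham (x axis), in JP2CR (red, upper) and WT (blue, lower), by role; bars are standard errors and filled points have an adjusted p under 0.05. The called chaperones lie left of 0, and Atf6, Edem1 and Edem3 lie furthest to the right.

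The calls after TAC are given by role, and the roles were not compared by a test. In each genotype 20.7% to 21.1% of all genes were called in either single direction. Among the 9 lumenal chaperones and cofactors 0 were called higher and 3 lower in JP2CR, and 0 higher and 5 lower in WT. Of the lectin chaperones 1 was called lower in JP2CR and 2 in WT. Of the 6 disulfide enzymes 3 were higher and 1 lower in JP2CR, and 2 higher and 1 lower in WT. Of the 4 sensors and transcription factors 1 was higher in each genotype and 0 were lower. Of the 8 tested degradation genes 2 were higher and 1 lower in JP2CR, and 2 higher and 3 lower in WT. Of the 3 translocation genes 2 were higher in JP2CR and 0 were called in WT. The summed level of the lumenal chaperones was 1211 to 1316 CPM in JP2CR TAC libraries and 1409 to 1535 in JP2CR sham, and 1004 to 1194 CPM in WT TAC libraries and 1391 to 1531 in WT sham. Neither pair of groups overlapped. The sum of the 9 degradation genes overlapped between JP2CR TAC (518 to 639 CPM) and JP2CR sham (507 to 739 CPM), while WT TAC (449 to 512 CPM) lay below WT sham (559 to 586 CPM). Most of that gap in WT was Herpud1, which averaged 137 CPM in WT TAC and 214 in WT sham. With each degradation gene weighted equally, as the mean log2(CPM + 1) less the sham mean, WT TAC libraries were at -0.06 to 0.03 and WT sham libraries at -0.02 to 0.02, which overlap, and JP2CR TAC libraries were at 0.10 to 0.17 and JP2CR sham libraries at -0.08 to 0.10.

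**Figure D3:**
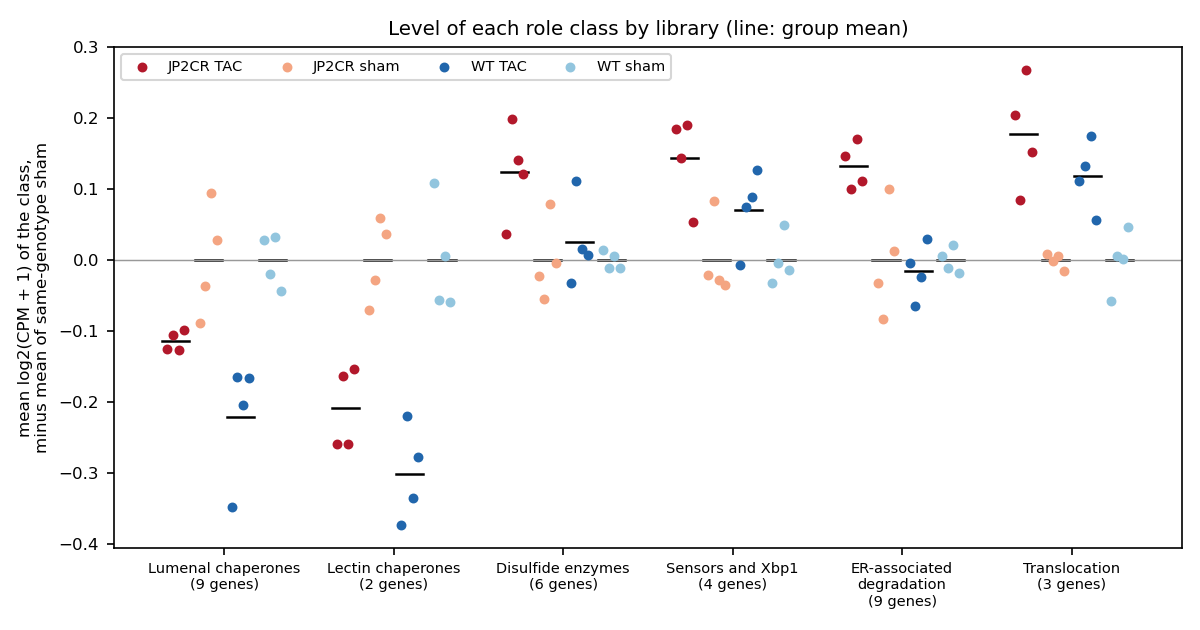
Mean log2(CPM + 1) of the genes of each role in every library (points), as the difference from the sham mean of the same genotype (y axis), with the group mean as a line; the degradation class includes Derl3. The TAC libraries of both genotypes lie below all same-genotype sham libraries for the lumenal chaperones.

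Hspa5 (chr2:34771970-34777547, plus strand, mm10) encodes BiP, the Hsp70 chaperone of the ER lumen and the brake on the sensors. It had 554, 600, 541 and 592 CPM in JP2CR TAC libraries and 707, 737, 697 and 774 CPM in JP2CR sham libraries. In WT it had 437, 523, 484 and 540 CPM after TAC and 790, 705, 766 and 708 CPM after sham. Every TAC library lay below every sham library, and the WT TAC libraries were, narrowly, below all JP2CR TAC libraries. The log2 fold change was -0.35 ± 0.06 (SE) in JP2CR, adjusted p = 0.000307, and -0.58 ± 0.06 in WT, adjusted p = 1.47e-06 (edgeR), which is a level of 0.785 and 0.669 of that in sham. The difference between these changes was 0.23 ± 0.09 (95% interval 0.05 to 0.41). Its unadjusted p was 0.0198 and its adjusted p 0.357, so it was not called.

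Hsp90b1 (chr10:86690209-86705509, minus strand) encodes GRP94, the Hsp90 of the ER. It had 380, 431, 390 and 423 CPM in JP2CR TAC and 416, 428, 424 and 452 CPM in JP2CR sham, with overlap, and the change of -0.08 ± 0.06 was not called (adjusted p = 0.304). In WT it had 325, 392, 345 and 386 CPM after TAC and 443, 396, 425 and 404 CPM after sham. These groups did not overlap, by a narrow margin, and the change of -0.20 ± 0.06 was called (adjusted p = 0.0137, edgeR). The call was lost without WT TAC 1 and without the 2 intermediate TAC libraries. An unprocessed pseudogene on the other strand, 1810014B01Rik, shares 10.3% of the exon bases of Hsp90b1.

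Hyou1 (chr9:44379490-44392369, plus strand) encodes GRP170, a large lumenal chaperone that also exchanges the nucleotide of BiP. It had 56.4, 59.5, 59.3 and 61.6 CPM in JP2CR TAC and 68.0, 67.5, 78.4 and 81.2 CPM in JP2CR sham, where the higher pair are the libraries with Xist. WT TAC libraries had 53.0, 56.5, 54.5 and 58.9 CPM, and WT sham libraries 63.9, 64.5, 66.9 and 69.2 CPM. No TAC library reached any sham library. The change was -0.32 ± 0.06 in JP2CR (adjusted p = 0.000604), or -0.21 ± 0.06 without the Xist libraries (adjusted p = 0.0149), and -0.25 ± 0.06 in WT (adjusted p = 0.00407, edgeR).

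Dnajb9 (chr12:44205559-44210326, minus strand) encodes ERdj4, a J-domain partner of BiP that also represses IRE1. It had 40.6, 46.6, 43.2 and 47.3 CPM in JP2CR TAC and 47.2, 50.1, 59.0 and 53.0 CPM in JP2CR sham. WT TAC libraries had 37.4, 38.8, 37.2 and 45.3 CPM and WT sham libraries 59.9, 51.0, 54.5 and 50.4 CPM. The groups touched at 1 library in JP2CR and were apart in WT. The change was -0.24 ± 0.08 in JP2CR (adjusted p = 0.0281) and -0.44 ± 0.08 in WT (adjusted p = 0.000342, edgeR). The JP2CR call was lost without any 1 of JP2CR sham 3, JP2CR sham 4, JP2CR TAC 1 or JP2CR TAC 3, and the adjusted p was 0.211 without the Xist libraries and 0.0793 without the intermediate ones.

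Manf (chr9:106838312-106891979, minus strand) encodes a secreted protein that is retained in the ER by BiP and released under stress. It had 30.2, 30.9, 29.9 and 31.7 CPM in JP2CR TAC and 31.2, 33.5, 34.3 and 34.2 CPM in JP2CR sham, a change of -0.12 ± 0.06 that was not called (adjusted p = 0.115). In WT it had 24.0, 27.4, 26.3 and 25.9 CPM after TAC and 34.8, 32.4, 32.2 and 30.1 CPM after sham. The WT groups lay apart, with a change of -0.32 ± 0.06 (adjusted p = 0.000287, edgeR). All 4 JP2CR TAC libraries were above all 4 WT TAC libraries. That difference, 0.24 ± 0.06, had the smallest adjusted p of any member in the comparison of genotypes under TAC, 0.0699.

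The other 4 lumenal cofactors were not called after TAC in either genotype. They were Dnajb11 and Dnajc3, J-domain partners of BiP, Sdf2l1, which assists the BiP and ERdj3 cycle, and Creld2, a secreted protein with EGF-like repeats and disulfide isomerase activity. Their log2 fold changes were 0.03, 0.10, -0.14 and 0.03 in JP2CR and -0.02, -0.05, -0.30 and 0.12 in WT, in the order named. Sdf2l1 was the lowest of these, at 5.01 to 5.72 CPM in JP2CR TAC and 4.78 to 7.46 in JP2CR sham, and at 2.94 to 4.69 CPM in WT TAC and 4.37 to 5.62 in WT sham. Its standard error of 0.16 in WT was the widest of the class. Without the Xist libraries its JP2CR estimate was 0.07 ± 0.19.

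Canx and Calr encode calnexin and calreticulin, the membrane-bound and the soluble lectin that hold newly made glycoproteins, and calreticulin also binds ER calcium. Canx (chr11:50293961-50325673, minus strand) had 304, 326, 301 and 329 CPM in JP2CR TAC, and 383, 398, 370 and 385 CPM in JP2CR sham. It had 284, 319, 292 and 314 CPM in WT TAC, and 430, 364, 391 and 375 CPM in WT sham. Both TAC groups lay wholly below their sham groups, with changes of -0.28 ± 0.06 in JP2CR (adjusted p = 0.000606) and -0.37 ± 0.06 in WT (adjusted p = 4.89e-05, edgeR). Calr (chr8:84841850-84846934, minus strand) had 299, 318, 302 and 319 CPM in JP2CR TAC, and 308, 314, 382 and 356 CPM in JP2CR sham. It had 261, 288, 267 and 269 CPM in WT TAC, and 336, 316, 320 and 305 CPM in WT sham. The WT groups did not overlap, and the change of -0.24 ± 0.06 was called (adjusted p = 0.00544, edgeR). The JP2CR change of -0.14 ± 0.06 was not called (adjusted p = 0.0873), and it was -0.02 ± 0.06 without the Xist libraries, which hold the 382 and 356 CPM.

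Among the disulfide enzymes, Pdia6 was lower after TAC and P4hb, Ero1l and, in JP2CR, Txndc5 were higher. Pdia6 (chr12:17266545-17284770, plus strand), an isomerase that also attenuates the sensors, had 96.3, 101, 96.5 and 106 CPM in JP2CR TAC, and 116, 120, 127 and 112 CPM in JP2CR sham. It had 82.9, 99.1, 89.8 and 89.0 CPM in WT TAC, and 116, 110, 111 and 114 CPM in WT sham. No TAC library reached a sham library of its genotype, and the changes were -0.25 ± 0.06 (JP2CR, adjusted p = 0.00186) and -0.32 ± 0.06 (WT, adjusted p = 0.000208, edgeR). Pdia3, the isomerase that works with calnexin and calreticulin, had a change of 0.03 in JP2CR and -0.12 in WT, and Pdia4 of 0.02 and -0.09. Neither was called.

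P4hb (chr11:120560298-120573253, minus strand) encodes protein disulfide isomerase, which is also the beta subunit of collagen prolyl 4-hydroxylase. It had 355, 411, 383 and 371 CPM in JP2CR TAC, and 287, 293, 349 and 297 CPM in JP2CR sham. It had 368, 354, 364 and 339 CPM in WT TAC, and 308, 299, 290 and 297 CPM in WT sham. The TAC libraries were all above the sham libraries of their genotype, with JP2CR sham 3 close to them. The changes were 0.31 ± 0.06 in JP2CR (adjusted p = 0.000526) and 0.25 ± 0.06 in WT (adjusted p = 0.00243, edgeR).

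Txndc5 (chr13:38500079-38528824, minus strand) encodes a thioredoxin-domain isomerase of the ER. It had 85.2, 99.3, 91.9 and 89.6 CPM in JP2CR TAC, against 72.9, 67.3, 79.1 and 61.7 CPM in JP2CR sham. The groups were apart, with a change of 0.38 ± 0.07 (adjusted p = 0.00055, edgeR). WT TAC libraries had 86.2, 87.6, 80.3 and 72.9 CPM, and WT sham libraries 72.4, 72.6, 70.7 and 75.1 CPM, which overlap, and the change of 0.17 ± 0.07 missed the threshold (adjusted p = 0.073). Without the Xist libraries the WT change was called (adjusted p = 0.0403, edgeR). The authors' deposited table gives Txndc5 a change of 0.17 in WT with an adjusted p of 0.0328. The difference between the genotypes' changes had an adjusted p of 0.52. Ero1l, the oxidase that recharges protein disulfide isomerase, had 21.9 to 25.4 CPM in JP2CR TAC and 16.8 to 21.5 in JP2CR sham, and 22.4 to 25.9 CPM in WT TAC and 18.4 to 20.6 in WT sham. It was called higher in both (0.26 ± 0.08, adjusted p = 0.0151, in JP2CR, and 0.28 ± 0.08, adjusted p = 0.00944, in WT, edgeR), and the JP2CR call was lost without JP2CR sham 3 or JP2CR TAC 3 and without both intermediate libraries (adjusted p = 0.0705). In the authors' deposited table Ero1l has an adjusted p of 0.0521 in JP2CR.

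Of the sensors, Atf6 was higher after TAC, and Ern1, Eif2ak3 and Xbp1 were not called. Atf6 (chr1:170704674-170867771, minus strand) encodes the membrane-tethered transcription factor that switches on chaperone genes once it is cut. It had 288, 247, 273 and 243 CPM in JP2CR TAC, and 204, 210, 201 and 166 CPM in JP2CR sham. It had 258, 256, 257 and 275 CPM in WT TAC, and 179, 182, 186 and 175 CPM in WT sham. Every TAC library was above every sham library of both genotypes. The changes were 0.43 ± 0.07 (JP2CR, adjusted p = 8.27e-05) and 0.53 ± 0.07 (WT, adjusted p = 6.96e-06, edgeR).

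Ern1, which encodes IRE1, had 14.8, 16.6, 16.5 and 15.5 CPM in JP2CR TAC, and 15.0, 16.9, 12.5 and 17.5 CPM in JP2CR sham. It had 14.6, 16.7, 16.8 and 15.5 CPM in WT TAC, and 16.5, 16.1, 17.3 and 17.2 CPM in WT sham. The groups overlapped, with changes of 0.05 ± 0.09 in JP2CR (adjusted p = 0.721) and -0.07 ± 0.09 in WT (adjusted p = 0.553). Eif2ak3, which encodes PERK, had 17.4, 16.4, 17.8 and 15.4 CPM in JP2CR TAC, and 14.8, 16.01, 16.8 and 14.1 CPM in JP2CR sham. It had 13.7, 14.3, 15.7 and 15.9 CPM in WT TAC, and 15.2, 16.2, 16.9 and 15.5 CPM in WT sham. Here too the groups overlapped, with changes of 0.11 ± 0.08 (JP2CR) and -0.10 ± 0.08 (WT), adjusted p = 0.264 and 0.327.

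Xbp1 encodes the transcription factor that IRE1 activates by splicing, and gene counts do not tell spliced from unspliced mRNA. It had 82.0, 80.8, 77.7 and 72.3 CPM in JP2CR TAC, and 75.1, 80.9, 78.9 and 80.0 CPM in JP2CR sham. It had 66.3, 70.8, 66.9 and 74.2 CPM in WT TAC, and 72.3, 73.7, 74.6 and 73.0 CPM in WT sham. The TAC and sham groups overlapped in both genotypes, with changes of -0.01 ± 0.05 (JP2CR, adjusted p = 0.903) and -0.08 ± 0.05 (WT, adjusted p = 0.246). The JP2CR sham libraries lay above all WT sham libraries by a small margin, and that difference of 0.10 ± 0.05 was not called (adjusted p = 0.654).

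**Figure D4:**
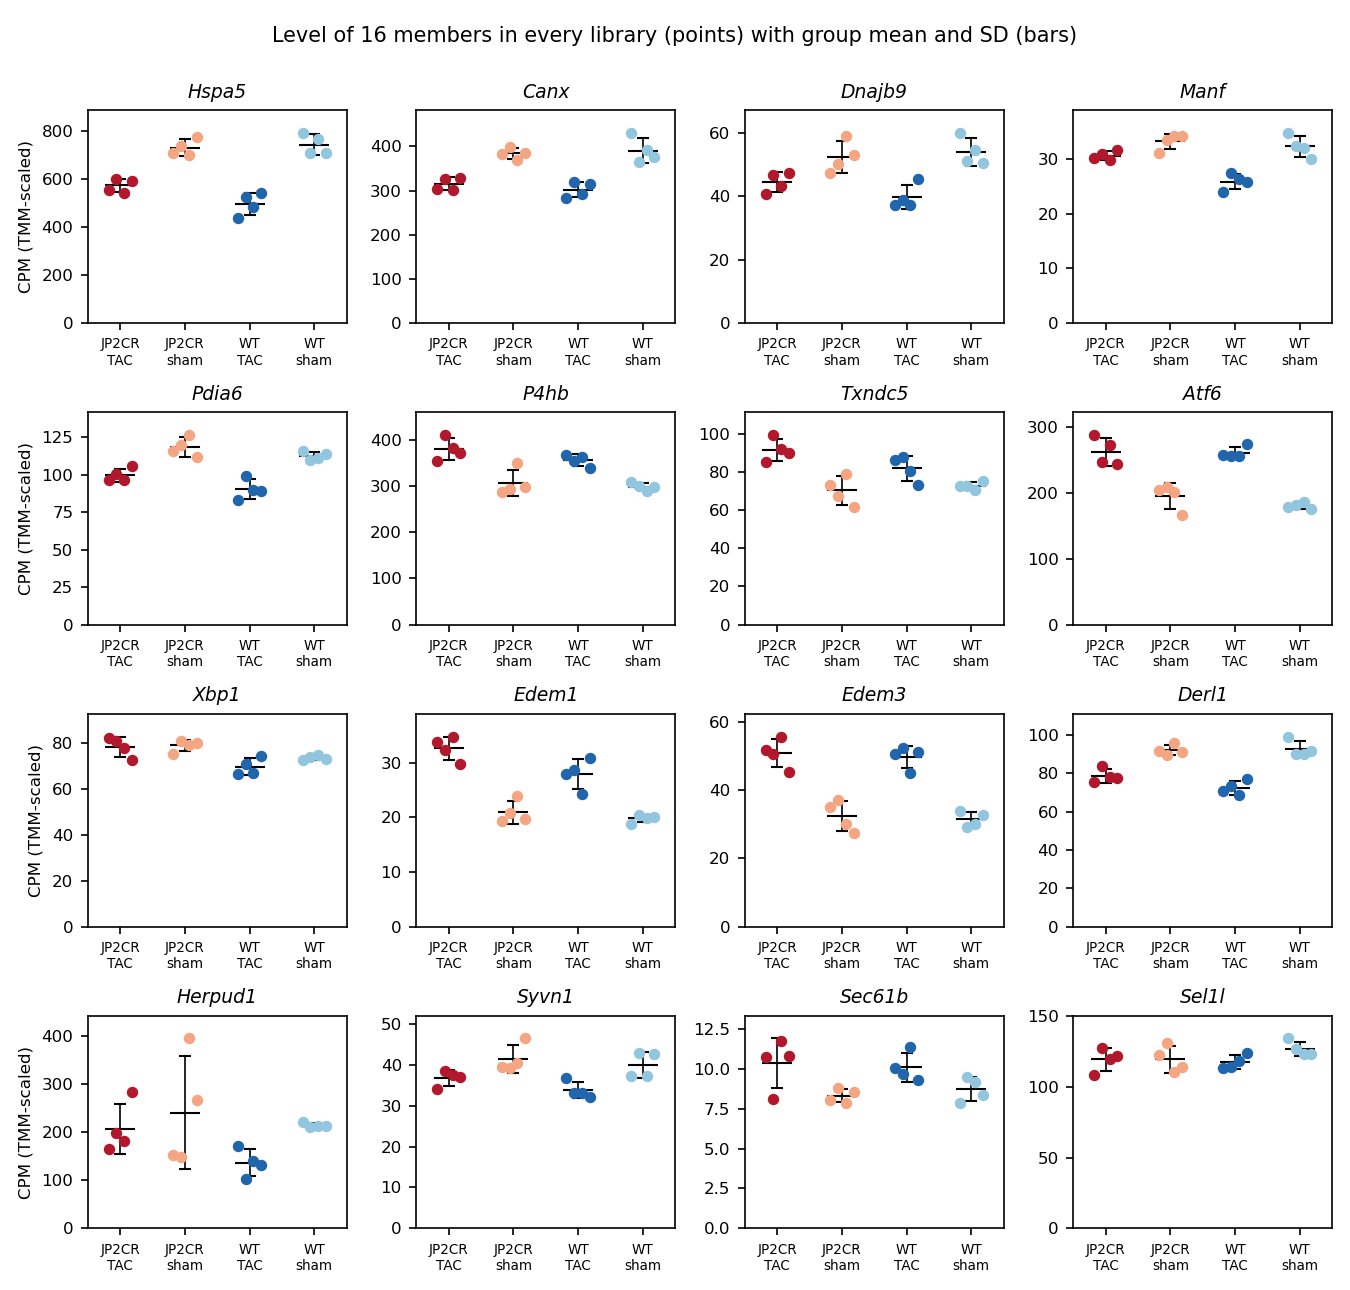
Level of 16 of the genes in every library (points, CPM on TMM-scaled totals, y axis from 0), with the group mean and SD (bars, n = 4), for JP2CR TAC, JP2CR sham, WT TAC and WT sham from left to right. Hspa5, Canx, Dnajb9 and Derl1 are lower after TAC, Atf6, Edem1 and Edem3 higher, and JP2CR sham splits for Herpud1.

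In ER-associated degradation both directions were seen. Edem1 and Edem3, which trim mannose from misfolded glycoproteins and so mark them for removal, were higher after TAC. Edem1 (chr6:108828641-108859356, plus strand) had 33.8, 32.4, 34.7 and 29.9 CPM in JP2CR TAC and 19.3, 20.8, 23.9 and 19.7 CPM in JP2CR sham, and 27.9, 28.7, 24.4 and 30.9 CPM in WT TAC and 18.9, 20.4, 19.95 and 20.2 CPM in WT sham. Edem3 (chr1:151755371-151822051, plus strand) had 51.8, 50.6, 55.7 and 45.5 CPM in JP2CR TAC and 35.1, 37.2, 30.0 and 27.5 CPM in JP2CR sham, and 50.5, 52.3, 45.2 and 51.1 CPM in WT TAC and 33.8, 29.3, 30.1 and 32.6 CPM in WT sham. For both genes each TAC library was above each sham library. The change of Edem1 was 0.64 ± 0.08 in JP2CR (adjusted p = 8.48e-06) and 0.49 ± 0.08 in WT (adjusted p = 9.54e-05), and that of Edem3 was 0.65 ± 0.09 (adjusted p = 1.76e-05) and 0.67 ± 0.09 (adjusted p = 1e-05, edgeR). Edem2, of the same family, was at 10.9 to 14 CPM in JP2CR TAC and 10.5 to 12.7 in JP2CR sham, and at 11.1 to 13.7 CPM in WT TAC and 10.7 to 12.4 in WT sham, and was not called.

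The members of the channel and its ubiquitin ligase were lower or not called. Derl1 (chr15:57869502-57892448, minus strand), a derlin of the retrotranslocation channel, had 75.2, 83.6, 78.1 and 77.3 CPM in JP2CR TAC, and 91.8, 89.7, 95.6 and 91.0 CPM in JP2CR sham. It had 70.5, 73.1, 68.7 and 77.2 CPM in WT TAC, and 99.1, 90.3, 89.9 and 91.7 CPM in WT sham. Each TAC group lay below its sham group, with changes of -0.23 ± 0.05 (JP2CR, adjusted p = 0.00174) and -0.36 ± 0.05 (WT, adjusted p = 2.63e-05, edgeR). The JP2CR call of Derl1 was lost when the Xist and the intermediate libraries were both left out (-0.19 ± 0.08, adjusted p = 0.0833). Syvn1, the ubiquitin ligase HRD1, had 34.1 to 38.4 CPM in JP2CR TAC and 39.2 to 46.4 in JP2CR sham, and 32.2 to 36.7 CPM in WT TAC and 37.2 to 42.8 in WT sham. It was called lower in WT (-0.25 ± 0.07, adjusted p = 0.00938, edgeR) but not in JP2CR (-0.17 ± 0.07, adjusted p = 0.0671), though neither pair of groups overlapped. Sel1l, the adaptor of HRD1, changed by 0.00 in JP2CR and -0.11 in WT, and Derl2 by 0.04 and 0.06, without a call.

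Herpud1 (chr8:94386438-94395377, plus strand) encodes HERP, a membrane protein that gathers the HRD1 complex. It had 166, 197, 182 and 283 CPM in JP2CR TAC and 153, 148, 395 and 267 CPM in JP2CR sham. The 3 libraries with Xist, JP2CR TAC 4 and JP2CR sham 3 and 4, had the 3 highest levels of all 16. WT TAC libraries had 172, 103, 140 and 132 CPM and WT sham libraries 221, 211, 212 and 214 CPM, without overlap. The WT change of -0.65 ± 0.25 was called (adjusted p = 0.0432, edgeR), but the call was lost in 12 of the alternative fits, among them DESeq2, those without any 1 WT sham library, without WT TAC 2, 3 or 4 and without JP2CR TAC 2 or 3. The estimate was -0.54 to -0.78 across the alternative fits, and without the Xist libraries it was -0.65 ± 0.10 (adjusted p = 6.92e-05, edgeR). The JP2CR change was -0.22 ± 0.25 (adjusted p = 0.506), and 0.27 ± 0.13 without the Xist libraries (adjusted p = 0.129). Without them the difference between the changes of the 2 genotypes was 0.93 ± 0.17 (adjusted p = 0.00801, edgeR), against 0.43 ± 0.35 with all libraries (adjusted p = 0.728). That leaves 3 JP2CR TAC and 2 JP2CR sham libraries. With the intermediate libraries left out too, the difference was 0.93 ± 0.20 (adjusted p = 0.0635). The part of sex in this gene's level was not tested.

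Derl3, a derlin of secretory cells, had 14, 0, 10 and 4 counts in JP2CR TAC and 4, 0, 3 and 1 in JP2CR sham, and 0, 1, 2 and 3 counts in WT TAC and 1, 1, 4 and 1 in WT sham. With so few counts no fold is given. The libraries with 14 and 10 counts, JP2CR TAC 1 and 3, were also those with the most counts of Jchain, an immunoglobulin chain of plasma cells, 606 and 275, against 7 to 71 in the other 14. The 8 B and plasma cell markers summed to 82.3 and 41.8 CPM there and to 4.87 to 13.9 CPM elsewhere. Their part in the Derl3 counts was not tested.

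The translocation genes had log2 fold changes between 0.04 and 0.32. Sec61a1 and Sec61b, subunits of the channel through which new chains enter the ER, were called higher in JP2CR (0.19 ± 0.07, adjusted p = 0.0452, and 0.32 ± 0.11, adjusted p = 0.0288, edgeR) and not in WT (0.13 and 0.21, adjusted p = 0.164 and 0.149). The groups overlapped for both genes in both genotypes, and the JP2CR calls were fragile. That of Sec61a1 was lost without any 1 of JP2CR TAC 1, 2 or 3, JP2CR sham 1, 2 or 4, WT TAC 2 or 3 or WT sham 2. That of Sec61b was lost without any 1 of JP2CR TAC 1, 3 or 4 or JP2CR sham 1 or 3, and without the Xist libraries (adjusted p = 0.163). Without the intermediate libraries the adjusted p was 0.12 for Sec61a1 and 0.0987 for Sec61b. In the authors' deposited table Sec61b has an adjusted p of 0.085 in JP2CR. Sec61b had 10.8, 8.15, 11.7 and 10.8 CPM in JP2CR TAC and 8.06, 8.78, 7.89 and 8.58 CPM in JP2CR sham. Ssr1, a subunit of the translocon-associated protein complex, changed by 0.07 in JP2CR and 0.04 in WT and was not called.

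Beside the chaperones, the summed levels of several cell type markers lay apart between TAC and sham. Those of cardiomyocytes, given above, and of smooth muscle and nerve were lower after TAC in both genotypes, and those of macrophages higher. The 8 macrophage markers summed to 312 to 375 CPM in JP2CR TAC and 226 to 263 in JP2CR sham, and to 303 to 320 CPM in WT TAC and 217 to 244 in WT sham. The 8 smooth muscle and pericyte markers summed to 830 to 1014 CPM in JP2CR TAC and 1257 to 1324 in JP2CR sham, and to 747 to 987 CPM in WT TAC and 1065 to 1405 in WT sham. The 8 fibroblast markers summed to 2489 to 2659 CPM in JP2CR TAC and 2753 to 3517 in JP2CR sham, and to 1936 to 3028 CPM in WT TAC and 2839 to 3282 in WT sham, where they overlapped. The 8 adipocyte markers summed to 2.90 to 102 CPM in JP2CR TAC and 5.77 to 274 in JP2CR sham, and to 0.531 to 10.2 CPM in WT TAC and 24.9 to 234 in WT sham, with 2 of them, Ucp1 and Retn, at 0 in all WT TAC libraries. All 8 adipocyte markers were called lower in WT and 0 in JP2CR, where the sums overlapped. Of the nerve and Schwann cell list 6 markers summed to 10.4 to 12.6 CPM in JP2CR TAC and 21.4 to 31.5 in JP2CR sham, and to 7.21 to 10.3 CPM in WT TAC and 26.1 to 32.9 in WT sham. Of the 8 atrial markers 1 was called higher and 7 lower after TAC in WT, with a median log2 fold change of -3.46, and 0 higher and 3 lower in JP2CR, with a median of -1.27. Their sum overlapped between TAC and sham in both genotypes, and most of it in every TAC library was Nppa. Nppa, a natriuretic peptide that is also made in stressed ventricles, was at 3533 to 4766 CPM in JP2CR TAC and 149 to 3890 in JP2CR sham, and at 3838 to 7264 CPM in WT TAC and 1774 to 2361 in WT sham. The other 7 summed to 426 to 680 CPM in JP2CR TAC and 158 to 2280 in JP2CR sham, and to 99.2 to 325 CPM in WT TAC and 1463 to 2403 in WT sham, and the lowest JP2CR sham value is that of JP2CR sham 4, a library with Xist. Nppa was set apart after its values were seen. The 5 skeletal muscle markers summed to 34.1 to 73.7 CPM in JP2CR TAC and 24.2 to 56.1 in JP2CR sham, and to 58.4 to 69.7 CPM in WT TAC and 29.2 to 35.8 in WT sham, with 2 of them at 0 in all WT TAC libraries. The endothelial sums overlapped in both genotypes. The part of these shifts in the chaperone levels was not tested.

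Levels of different genes are compared per kilobase of merged exons. In JP2CR TAC Hspa5 (135 CPM per kilobase) and P4hb (133) led, and in JP2CR sham Hspa5 (172), Calr (118) and P4hb (107). In WT TAC P4hb (125) stood before Hspa5 (117), and in WT sham Hspa5 (175) stood before Calr (111), P4hb (104), Hsp90b1 (103), Herpud1 (91.9) and Canx (83.1). Hspa5 made up 13.6% of the summed level of all 33 genes in JP2CR TAC and 16.6% in JP2CR sham, and 13.4% in WT TAC and 17.4% in WT sham. Calr, P4hb and Hsp90b1 are within their spread of each other in WT sham, so their order there is not resolved. The same holds for Hspa5 and P4hb in JP2CR TAC and in WT TAC, and for Calr and P4hb in JP2CR sham. The sensors were at the other end, with Eif2ak3 at 2.78 and Ern1 at 1.94 CPM per kilobase in JP2CR TAC and 2.65 and 2.05 in WT sham, and Derl3 was last in every group. Atf6 stood far above both, at 28.5 CPM per kilobase in JP2CR TAC and 21.2 in JP2CR sham, and at 28.3 in WT TAC and 19.6 in WT sham.

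Read against the promoter windows, 6 of the 11 genes called lower in WT held an ER stress element, and 3 of the 11, Hyou1, Manf and Derl1, had no window. Of the 8 tested genes with that element 0 were higher and 3 lower after TAC in JP2CR, and 0 higher and 6 lower in WT, with median log2 fold changes of -0.15 and -0.24. The 6 were Hspa5, Hsp90b1, Canx, Calr, Pdia6 and Syvn1, whose elements are printed above, and the others were Dnajc3 and Creld2. Of the 19 tested genes with a window but no such element 6 were higher and 1 lower in JP2CR, and 4 higher and 2 lower in WT, with medians of 0.05 and -0.02. These 19 include Dnajb11, Herpud1 and Txndc5, which held another of the motifs searched. Edem1, Edem3, P4hb and Ero1l, which were higher in both genotypes, held no exact match to the 3 motifs in these windows. Dnajb9, called lower in both, held none of them either, and Atf6, higher in both, had no window. Of all genes 20.7% to 21.1% were called in either single direction in each genotype. These counts describe the genes chosen here, depend on the exact-match rule and were not tested.

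No difference between the genotypes passed the threshold. Under TAC, 0 of the 32 genes were called between JP2CR and WT by edgeR, DESeq2 or limma voom, against a background of 0.651% of all genes called by edgeR in either direction. At an unadjusted p under 0.05 the count was 15, all of them higher in JP2CR, against 7% of all genes. The estimate was above 0 for 30 of the 32, against 49.1% of all genes, with a median of 0.12, and the exceptions were Ero1l (-0.02) and Ern1 (-0.00). Genes of a pathway can vary together between libraries, so these counts are not over independent genes. Of the 15, 10 were chaperones, lectin chaperones or disulfide enzymes, classes that make up 17 of the 32 tested genes. In the same comparison the adipocyte markers had 8 of 8 estimates above 0 (1 called, 7 at an unadjusted p under 0.05, edgeR). Atrial markers had 7 of 8 (1 called, 5 at that level). Tested B and plasma cell markers had 6 of 6 (0 called, 5 at that level), and endothelial markers 7 of 8 (0 called, 3 at that level). Macrophage markers had 7 of 8 (0 called, 3 at that level, 2 of them higher). Smooth muscle markers had 8 of 8 (0 called, 0 at that level). Tested nerve and Schwann cell markers had 4 of 4 (0 called, 1 at that level). For cardiomyocyte markers it was 2 of 8 and for fibroblast markers 3 of 8. The part of these marker sets in the genotype estimates was not tested. The B and plasma cell markers summed to 8.49 to 82.3 CPM in JP2CR TAC and 5.91 to 13.9 in WT TAC. WT TAC libraries enter both this comparison and that of TAC in WT, so the 2 sets of values are not independent either.

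**Figure D5:**
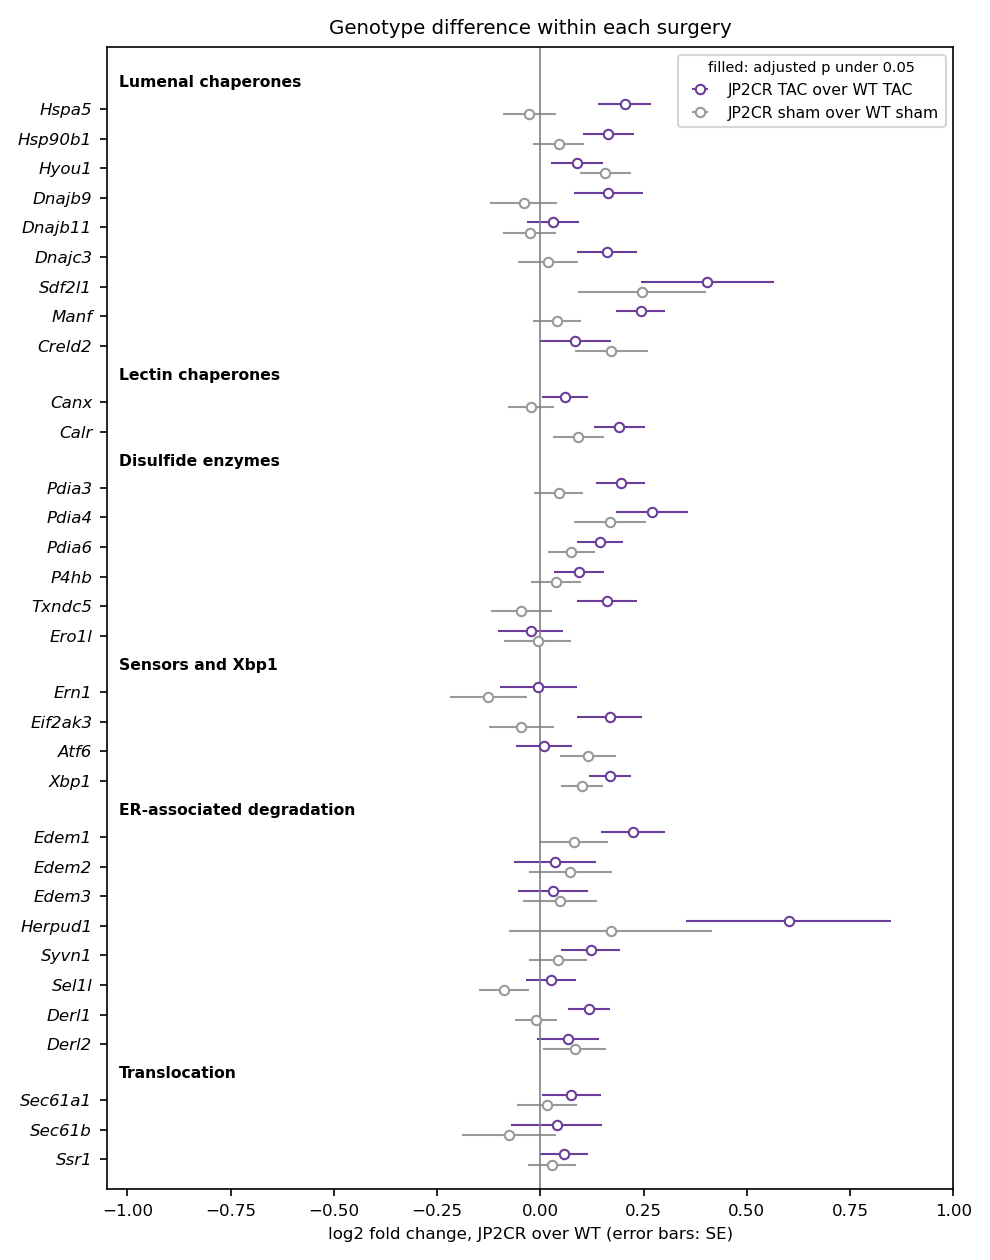
Log2 fold change of JP2CR over WT for each tested gene (x axis), within TAC (purple, upper) and within sham (grey, lower), by role; bars are standard errors, and open points did not reach an adjusted p of 0.05. The TAC estimates lie right of 0 for 30 of the 32 genes, and none is filled.

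In 4 genes, Hspa5, Sdf2l1, Manf and Calr, all JP2CR TAC libraries were above all WT TAC libraries, against 3.96% of all genes, and in 0 genes below, against 4.13%. Hspa5 averaged 572 ± 29.0 CPM in JP2CR TAC and 496 ± 45.9 in WT TAC (SD, n = 4 each), a difference of 0.20 ± 0.06 (adjusted p = 0.156, 95% interval 0.08 to 0.33). Calr averaged 309 ± 10.8 CPM in JP2CR TAC and 271 ± 11.6 in WT TAC, a difference of 0.19 ± 0.06 (adjusted p = 0.178, edgeR). Sdf2l1 averaged 5.24 ± 0.32 CPM in JP2CR TAC and 3.96 ± 0.733 in WT TAC, a difference of 0.40 ± 0.16 (adjusted p = 0.283). Herpud1 averaged 207 ± 52.4 CPM in JP2CR TAC and 137 ± 28.4 in WT TAC, with overlap, a difference of 0.60 ± 0.25 (adjusted p = 0.31, edgeR). Atf6 and Edem3 differed by 0.01 and 0.03, with 95% intervals of -0.12 to 0.14 and -0.14 to 0.20. Without the Xist libraries the estimate was above 0 for all 32 genes and Xbp1 was called (0.21 ± 0.05, adjusted p = 0.0427, edgeR), and without JP2CR sham 3 alone Manf was called, at an adjusted p of 0.0435.

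Between JP2CR sham and WT sham 0 of the 32 genes were called by edgeR, DESeq2 or limma voom, against 0.0961% of all genes by edgeR. Hyou1 was the 1 gene with an unadjusted p under 0.05 (0.16 ± 0.06, adjusted p = 0.503), against 4.16% of all genes higher at that level. It was 0.03 ± 0.06 without the Xist libraries. Xbp1 was the 1 gene whose groups did not overlap, higher in JP2CR, against 1.98% of all genes. The median was 0.04, and 0.0028 without the Xist libraries, and the bound of the 95% interval farther from 0 was 0.20 for the median gene and 0.65 at most, for Herpud1. The estimate of Herpud1 was 0.17 with all libraries and -0.51 ± 0.13 without the Xist libraries (adjusted p = 0.0944, edgeR).

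The change after TAC differed between the genotypes for 0 of the 32 genes (edgeR, DESeq2 or limma voom), against 0.118% of all genes by edgeR. At an unadjusted p under 0.05 (edgeR) there were 2 of the 32, Hspa5 and Manf. Of all genes 5.47% had a higher change in JP2CR at that level, so the count of 2 was near the background. The changes of these 2 genes were less negative in JP2CR, by 0.23 and 0.20 on the log2 scale. Of the 32 estimated differences between the changes 25 were above 0, against 47.8% of all genes, with a median of 0.10. Hsp90b1, Manf, Calr, Herpud1 and Syvn1 were called in WT and not in JP2CR, and for none of them was the difference between the changes called with all libraries. For Manf it had an unadjusted p of 0.0254 and a 95% interval of 0.04 to 0.36, and for Herpud1 it was called without the Xist libraries, as given above.

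Other genes of the same pathways changed in both directions. Of 18 further ER folding genes 3 were higher and 5 lower after TAC in each genotype, among them Dnajc10, an ER reductase, higher by 0.26 in JP2CR and 0.25 in WT, and Mesdc2, a chaperone of lipoprotein receptors, at -0.23 and -0.24. Of 17 further degradation genes 5 were higher and 3 lower in JP2CR, and 5 higher and 2 lower in WT. Ubxn4, which recruits the p97 ATPase to the ER, had a change of 0.41 ± 0.05 in JP2CR and 0.44 ± 0.05 in WT, and Svip, an inhibitor of ER-associated degradation, -0.50 ± 0.07 and -0.40 ± 0.07. Of 25 genes of the translocon, signal peptidase and oligosaccharyltransferase 3 were higher and 4 lower in JP2CR, and 1 higher and 8 lower in WT. The 1 was Spcs3, a signal peptidase subunit (0.84 ± 0.08 in JP2CR, adjusted p = 6.87e-07, and 0.90 ± 0.08 in WT, adjusted p = 1.88e-07, edgeR).

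Genes of the ATF4 and CHOP arm, through which PERK can act, were higher after TAC where they were called. The part of PERK in these levels was not tested, and its gene Eif2ak3 was not called. Of 14 genes of the ATF4 and CHOP arm 6 were higher and 0 lower after TAC in JP2CR, and 5 higher and 0 lower in WT, with medians of 0.27 and 0.23. Ppp1r15a, the phosphatase subunit GADD34 that reverses the action of PERK, was higher by 0.80 ± 0.10 in WT (adjusted p = 6.94e-06). Nupr1, a stress-induced chromatin protein, was higher by 1.27 ± 0.19 in JP2CR (adjusted p = 6.05e-05) and 1.46 ± 0.19 in WT (adjusted p = 1e-05), and Ddit4, an inhibitor of mTORC1, by 1.35 ± 0.26 in JP2CR (adjusted p = 0.000444, edgeR). Of 17 genes of collagen folding 6 were higher and 2 lower in JP2CR, and 7 higher and 3 lower in WT, such as P3h2, a prolyl 3-hydroxylase (1.502 ± 0.20 in WT, adjusted p = 1.32e-05), and P3h4 (-0.98 ± 0.10 in JP2CR and -1.13 ± 0.10 in WT). Of 19 other regulators 3 were higher and 2 lower in JP2CR, and 5 higher and 2 lower in WT. Among these, Creb3, a membrane-bound transcription factor, was higher by 0.36 in JP2CR and 0.39 in WT, and Tmbim6, an ER membrane inhibitor of cell death, was at -0.19 and -0.32. These lists, like the members, were described by counts, beside 20.7% to 21.1% of all genes called in either single direction. The genes named were taken from those with the smallest p in each direction within each genotype, and not all of those are printed. Left out above were, among others, Sil1 of the ER folding list (-0.38 in JP2CR) and P4ha3 of the collagen folding list (3.88 in JP2CR). Of the other regulators, Bak1 (0.54 in WT) and Eif2ak2 (0.67 in JP2CR) were also left out. Where only 1 genotype is given, the change in the other is not printed, and no difference between genotypes is meant.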

How the data were processed

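RNA of whole ventricles was measured by sequencing of stranded polyA libraries, per the labels' protocols. Per the submitters' processing notes the tools were FastQC 1.0.0, Picard 1.128, DESeq2 1.6.3, Cufflinks 2.2.1, STAR 2.5.0b and bedtools 2.17.0, with build mm10. Which program counted, its annotation and its use of strand were not given in the sources used here. The deposited values are raw counts per gene for 16 libraries, with the authors' log2 fold changes and adjusted p-values of TAC against sham in each genotype. The sign of those columns was checked against the counts and is TAC over sham. Of the per-sample columns 0 lacked a sample.

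The counts were fitted here with edgeR 4.0.16 (R 4.3.3) over all 4 groups, after its low-count filter, with TMM factors and the quasi-likelihood test, and p-values were adjusted over all 13522 genes. Of 24421 entries 5817 were at 0 in every library. CPM are counts over TMM-scaled totals, and exon lengths come from GENCODE for mm10. Limma 3.58.1 and DESeq2 1.42.0 were alternatives. The edgeR fits of TAC in WT and of the interaction were also run on simulated counts. The changes planted there were larger than most of those of the members, so these runs do not speak to changes that small. The 33 members are all named, and of each other list some of those with the smallest p in each direction. Members and lists were chosen with earlier results of these data known. Replicate numbers were not used as pairs: deviations of same-numbered libraries correlated between -0.187 and 0.108. Without the strand setting, reads of a gene and its antisense neighbour cannot be told apart, and 11 members share exon bases with another gene. No pair of libraries of the same group agreed within sampling noise (chi-square per gene 1.51 to 21.7). Pairs from different groups were not compared in this way.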

Additional observations from a re-analysis of the deposited data

Results flagged for a closer look

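A single library stood apart from the other 3 of its group, by the ratio of its gap to the whole range, in 7 of 132 combinations of gene and group examined. Chance flags about 1 in 20 groups. P4hb had 349 CPM in JP2CR sham 3, a library with Xist, against 287 to 297 CPM in the others. Syvn1 had 46.4 CPM in JP2CR sham 4, the other JP2CR sham library with Xist, against 39.2 to 40.3 CPM. Edem2 had 10.5 CPM in JP2CR sham 2, against 12.5 to 12.7 CPM. In WT TAC 4 Atf6 had 275 CPM, against 256 to 258 CPM, and Ero1l had 25.9 CPM, against 22.4 to 23.0 CPM. Derl2 had 28.4 CPM in WT TAC 1, against 32.8 to 33.3 CPM. Derl3 had 0.326 CPM in WT sham 3, which is 4 counts, against 1 count in each of the others.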

How the results depend on the processing

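No gene changed direction with a call under any alternative. In the fits that leave out 1 library, the count of genes higher after TAC ranged from 5 to 8 in JP2CR and 5 to 6 in WT, and of genes lower from 5 to 7 in JP2CR and 10 to 11 in WT. Leaving out 1 library gave 0 to 1 gene higher in JP2CR under TAC and 0 lower, and 0 for sham and for the interaction. With the replicate number as a block, the counts after TAC were 7 higher and 6 lower in JP2CR and 5 higher and 11 lower in WT, and 0 in all other comparisons. The 8 genes higher in JP2CR became 5 without the intermediate TAC libraries, 5 without these and the Xist libraries, and 5 at an adjusted p under 0.01. Without the Xist libraries alone, 1 gene was higher in JP2CR under TAC (Xbp1) and 1 had a higher change in JP2CR (Herpud1), against 0 each with all libraries. DESeq2 gave 8 higher and 6 lower in JP2CR and 5 higher and 10 lower in WT, and limma voom, other scaling factors and both filters kept each count within 1.5 times. Some genes just outside the threshold were called in single fits: in WT Pdia3 without WT TAC 2, Txndc5 without WT TAC 4, without the Xist libraries or with only the groups compared, and Sec61a1 without WT sham 4, and in JP2CR Calr without JP2CR sham 1 or 2 and Syvn1 with upper-quartile factors. The cause of these shifts was not tested.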
